A study of Mus musculus with 20 samples.

Results

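The HSP70 and HSP110 chaperones were followed here as 10 genes, chosen by name as members of both families out of 34083 genes in the tables: Hspa1a, Hspa1b, Hspa2, Hspa4, Hspa4l, Hspa5, Hspa8, Hspa9, Hspa13 and Hsph1. RNA was sequenced in bulk from N2A cells, a mouse neuroblastoma line, after whole wells had been scanned with a near-infrared pulsed laser as used in stimulated Raman scattering (SRS) microscopy. The 20 libraries fell into 7 groups in 2 batches, and every well was lysed 1 h after exposure. In batch 1 a single laser was scanned through a 20X objective in I0-E0 (20 mW, 2 µs per pixel, fluency about 10 J/cm2), I0-E2 (20 mW, 10 µs, about 48 J/cm2), I0-E4 (20 mW, 20 µs, about 95 J/cm2) and I2-E2 (100 mW, 2 µs, about 48 J/cm2), each with 3 libraries, against 3 libraries of unexposed negative control wells (NC). In batch 2 both lasers of SRS imaging were scanned through a 60X objective in I3-E3-SRS (2 µs per pixel, about 79 J/cm2, 3 libraries), against 2 NC libraries. All groups were the same line grown under the same conditions, and the labels name no transgene or drug in any of them. A single cell line was used, without primary cells or tissue.

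HSP70 proteins bind exposed hydrophobic stretches of unfolded or newly made proteins and release them in a cycle driven by ATP. J-domain proteins load the client and start ATP hydrolysis, and nucleotide exchange factors, among them the HSP110 proteins, which are larger relatives of HSP70, open the chaperone again. Cells keep a constitutive set at all times, and after heat or other protein damage the transcription factor HSF1 binds heat shock elements and switches on the inducible set. The inducible cytosolic members here were Hspa1a, Hspa1b and Hsph1, and the constitutive cytosolic members were Hspa8 (HSC70) and Hspa4 (APG-2). Hspa4l and Hspa2 are cytosolic members enriched in testis, Hspa5 (BiP) is the chaperone of the endoplasmic reticulum and is induced by the unfolded protein response, Hspa9 (mortalin) is the mitochondrial member, and Hspa13 is a truncated microsomal member.

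The inducible classes rest on short promoter elements, which are shown here for an HSP110 gene, an HSP70 gene and the endoplasmic reticulum member. Each line is the 120 bases before the RefSeq start on the gene's own strand in GRCm38, with heat shock elements of a pair of units (GAANNTTC or TTCNNGAA) or the endoplasmic reticulum stress element (CCAAT and CCACG with 9 bases of any kind between them) in capitals. The windows lie at chr5:149636337-149636456 on the minus strand for Hsph1, chr17:34959239-34959358 on the minus strand for Hspa1b and chr2:34771970-34772089 on the plus strand for Hspa5. GENCODE models of Hsph1 and Hspa5 start further upstream than RefSeq and reach into these windows.
Hsph1: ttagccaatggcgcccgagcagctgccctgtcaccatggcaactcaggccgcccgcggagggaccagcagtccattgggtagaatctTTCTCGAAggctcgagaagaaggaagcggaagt
Hspa1b: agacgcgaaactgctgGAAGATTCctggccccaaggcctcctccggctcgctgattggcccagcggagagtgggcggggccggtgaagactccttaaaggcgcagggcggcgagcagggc
Hspa5: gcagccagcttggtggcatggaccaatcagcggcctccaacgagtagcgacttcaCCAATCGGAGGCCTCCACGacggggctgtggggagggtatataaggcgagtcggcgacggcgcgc

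The RefSeq promoter table held 7 of the 10 members, in 8 windows of 300 bases (250 bases before and 50 after the start), and motifs were searched on both strands. In Hsph1 the TTCTCGAA element began 33 bases before the start used for the sequence above. An element of 3 units, TTCTGGAAAGTTC at chr5:149636288-149636300, began at base 37 after that start. Hsph1 had another window with a different start, and there the same elements began 54 bases before and at base 16 after it. An element of 3 units (TTCNNGAA followed by NNTTC, which contains both forms of a pair) was found in 0.603% of the 32851 promoter windows of the table. Hspa1a and Hspa1b each carried GAAGATTC from 104 bases before the start, and their windows differed at 4 of 300 positions. A pair of units in either form was found in 15.1% of all windows, and the endoplasmic reticulum stress element, which began 65 bases before the start of Hspa5, in 0.119%. Neither kind of motif was found in the windows of Hspa2, Hspa4 or Hspa4l. Hspa8, Hspa9 and Hspa13 had no window and were not searched. A match of letters describes the window and not occupancy by a factor.

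Estimated reads per library ranged from 5473588 to 12698770, and 3 reads, taken as the floor of detection, corresponded to 0.236 to 0.548 CPM (reads of a gene scaled to a fixed library total). N2A identity was checked first. Of 13 neuroblastoma genes 11 had a median of at least 1 TPM, a level scaled by transcript length, and their summed level was 1208 to 2262 TPM, while Nefm and Nefl were near 0. The summed levels of markers of fibroblasts (0.327 to 4.65 TPM), macrophages (0.396 to 4.79 TPM), epithelial cells (0.026 to 0.731 TPM), endothelial cells (2.24 to 13.5 TPM), glia (1.09 to 9.21 TPM) and erythroid cells (0 to 1.25 TPM) were low. In NC batch 2 replicate 1, transcripts under 300 bases held 33.0% of TPM against 1.62% to 2.30% in the other 19 libraries, and transcripts under 500 bases held 6.23% of reads against 1.74% to 2.32%. Hspa9 had 192 TPM there, against 439 TPM in the other NC library of batch 2, while Hsph1 was not lower, so levels of 1 gene across libraries are given as CPM scaled by the trimmed mean of M values (TMM), and TPM is used only between genes.

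The constitutive Hspa8 was the most abundant member, and the inducible HSP70 pair was at or near 0 in every group. In the 15 libraries of batch 1 the median level was 1798 TPM for Hspa8, 619 TPM for Hspa5, 470 TPM for Hspa9, 298 TPM for Hspa4, 257 TPM for Hsph1, 61.4 TPM for Hspa4l, 25.1 TPM for Hspa13 and 5.30 TPM for Hspa2. Neighbours in this order did not overlap across the 15 libraries, except Hspa4 (265 to 327 TPM) with Hsph1 (227 to 276 TPM), and Hspa1a with Hspa1b at the bottom. In batch 2 the ranges of Hspa5, Hspa9, Hsph1 and Hspa4 each overlapped the next, with NC batch 2 replicate 1 included. Of the summed level of the 10 genes, Hspa8 made up 49.2% to 52.6% and Hsph1 6.66% to 7.78% in batch 1. Thus Hspa8 headed the order of summed TPM, followed by the members of the endoplasmic reticulum and of mitochondria. These sums include short transcripts without the full coding sequence. In batch 1 a retained-intron transcript of 630 bases averaged 39.4% of Hspa4 TPM but 6.08% of its reads. Short transcripts of Hspa8 (727 bases), Hspa5 (477 bases) and Hsph1 (751 bases) held 28.0%, 16.6% and 14.2% of TPM. The main coding transcripts averaged 171 TPM for Hspa4 and 101, 74.2 and 33.7 TPM for Hsph1, so Hspa4 did not exceed Hsph1 there.

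**Figure D1:**
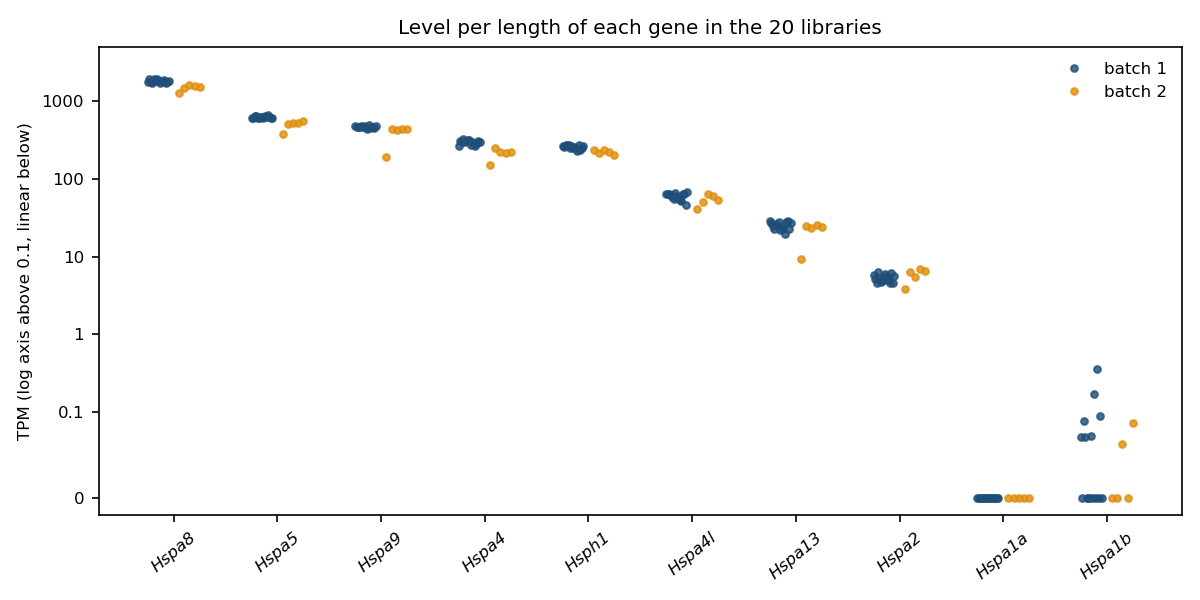
Level of each of the 10 genes in TPM (y axis, logarithmic above 0.1 and linear below) in the 20 libraries, with batch 1 in blue and batch 2 in orange, 1 point per library. Hspa8 lies at the top with a batch 1 median of 1798 TPM, Hspa1a lies at 0 in all libraries, and the lone low batch 2 points of Hspa9 and Hspa13 are NC batch 2 replicate 1.

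Hspa1a and Hspa1b, neighbouring single-exon genes on chromosome 17 (chr17:34969190-34972156 and chr17:34956436-34959238) that encode the classical heat-induced HSP70, gave almost no reads. Hspa1a had 0 reads in all 20 libraries. Hspa1b had 1, 0 and 0 estimated reads in I0-E0, 0, 1 and 0 in I0-E2, 2, 0 and 5 in I0-E4, and 0, 1.01 and 0 in I2-E2, against 1, 0 and 1 in NC of batch 1. In batch 2 it had 1, 0 and 2.04 reads in I3-E3-SRS, against 0 and 0 in NC. The highest value, 5 reads in I0-E4 replicate 3, was 0.602 CPM and the only one above the floor of 3 reads, and exposed and NC libraries overlapped in batch 1. Of the 31-base words of Hspa1a 63.8% also occur in Hspa1b, so Salmon, the program that assigned the reads, could place a shared read on either, yet the pair together held 12.01 reads over batch 1 and 3.04 over batch 2. Both genes failed the filter on low counts and were not tested, and a change below the floor was not detectable at this depth.

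Exposed and unexposed wells were compared next, to ask whether scanning had altered the chaperones 1 h later. The other 8 members passed the filter and were tested with edgeR's quasi-likelihood test, adjusted by Benjamini-Hochberg over 12296 genes in batch 1 and 12031 genes in batch 2. None of the 8 passed an adjusted p of 0.05 in I0-E0, I0-E2, I0-E4, I2-E2 or I3-E3-SRS against NC, and 0% of all genes tested passed in each of these comparisons. At an unadjusted p under 0.05 there were 413 (3.36%), 413 (3.36%), 973 (7.91%), 884 (7.19%) and 484 (4.02%) genes over the whole table in the same order of groups, and 1 member each in I0-E4 (Hspa5) and I2-E2 (Hspa4l). DESeq2 and limma-voom also called 0 of the 8 members in all 5 comparisons. The libraries of the exposed group and NC did not overlap for 0 of 8 members in I0-E0 (9.04% of all genes), 1 in I0-E2 (11.2%), 3 in I0-E4 (12.7%), 1 in I2-E2 (12.1%) and 1 in I3-E3-SRS (18.6%), counted in either direction. The 4 comparisons of batch 1 share their 3 NC libraries. The labels do not say whether wells came from separate cultures, so the p-values measure the spread between wells, which may be technical. In bulk RNA a change in the share of cells and a change in RNA per cell cannot be told apart.

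Hsph1 (chr5:149614287-149636376), the heat-inducible HSP110 protein (HSP105), was expressed in every library. It had 500, 490 and 469 CPM in I0-E0, 485, 502 and 490 CPM in I0-E2, 492, 464 and 484 CPM in I0-E4, and 477, 449 and 477 CPM in I2-E2, against 491, 474 and 466 CPM in NC. All 4 exposed groups overlapped NC. The log2 fold changes were 0.03 in I0-E0, 0.05 in I0-E2, 0.01 in I0-E4 and -0.03 in I2-E2, and the 95% intervals of limma-voom over these 4 comparisons reached from -0.13 to 0.14. In I3-E3-SRS it had 397, 358 and 354 CPM, against 372 and 357 CPM in NC of batch 2, with a log2 fold change of 0.02 (95% interval -0.14 to 0.17). The upper limits of these intervals corresponded to 10.3% upward in batch 1 and 12.7% upward in I3-E3-SRS. Each interval covers 1 gene in 1 comparison without adjustment for their number, so a larger change remains possible.

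Hspa8 (chr9:40800984-40810087), the constitutive HSC70, had 1640, 1827 and 1653 CPM in I0-E0, 1719, 1790 and 1809 CPM in I0-E2, 1826, 1845 and 1776 CPM in I0-E4, and 1682, 1878 and 1734 CPM in I2-E2, against 1819, 1786 and 1787 CPM in NC. The exposed groups spanned the NC values, with I0-E0 replicates 1 and 3 and I2-E2 replicate 1 the lowest. Its log2 fold changes lay between -0.07 (I0-E0) and 0.01 (I0-E4) in batch 1. In I3-E3-SRS it had 1752, 1665 and 1692 CPM, against 1743 and 1604 CPM in NC, with a log2 fold change of 0.03. These groups overlapped as well.

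The level of Hspa8 was shared with a near-identical processed pseudogene, Gm15459 (chr5:5781615-5783555, minus strand), which limits what either value means. The main coding transcript of Hspa8 and Gm15459 differed at 4 of 1884 aligned bases, with 1 gap, and 85.6% of the 31-base words of that transcript also occur in Gm15459. The stretch around the first difference is shown because, within the aligned bases, a read separates the loci where it crosses such a base, which is in capitals. The gap, the ends outside the alignment and bases found only in other Hspa8 transcripts can also separate them. The stretch covers bases 136 to 196 of the main Hspa8 transcript and 84 to 144 of Gm15459, from the GENCODE vM21 transcripts.
Hspa8: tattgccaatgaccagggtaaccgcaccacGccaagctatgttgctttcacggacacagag
Gm15459: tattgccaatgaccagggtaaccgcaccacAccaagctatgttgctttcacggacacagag

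Within the aligned bases, with the gap not counted, the longest run without a difference was 672 bases. The reads of Hspa8 and Gm15459 together were placed on Gm15459 at 48.04% to 52.5% in batch 1 and at 45.9% to 48.6% in batch 2, and the pair together had a median of 3368 TPM in batch 1, against 1798 TPM for Hspa8 alone. Summed, and with all libraries scaled together, the pair had 3464, 3607 and 3466 CPM in I0-E0, 3581, 3716 and 3667 CPM in I0-E2, 3688, 3656 and 3662 CPM in I0-E4, and 3448, 3592 and 3503 CPM in I2-E2, against 3604, 3623 and 3490 CPM in NC. I0-E4 lay above all NC libraries, where 12.7% of all genes tested did not overlap NC, and the other 3 groups overlapped them. In batch 2 the pair had 3244, 3067 and 3186 CPM in I3-E3-SRS, against 3390 and 3019 CPM in NC, with the I3-E3-SRS libraries between both NC libraries. With the reads summed before the fit, log2 fold changes were -0.02 in I0-E0, 0.03 in I0-E2, 0.04 in I0-E4, -0.02 in I2-E2 and -0.02 in I3-E3-SRS, with adjusted p of 0.784 to 1.00 by edgeR. How the reads truly divide between both loci was not tested.

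**Figure D2:**
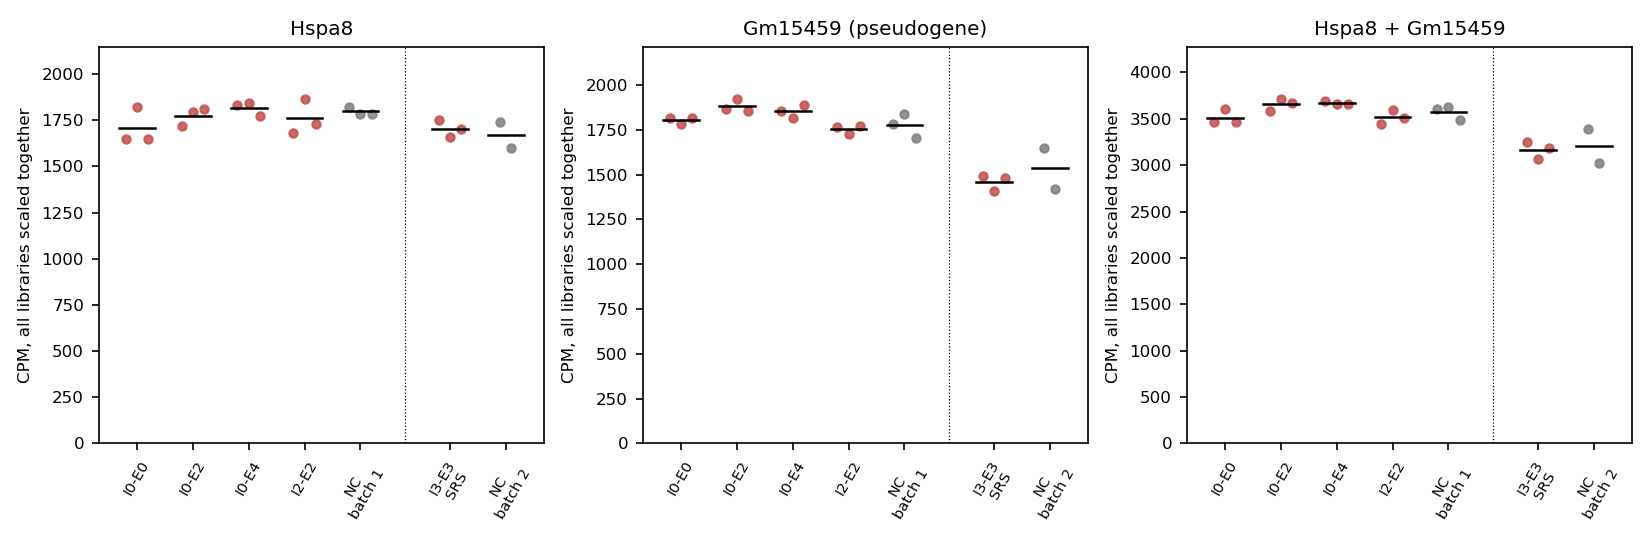
CPM with all libraries scaled together (y axes) of Hspa8, Gm15459 and their sum by group, with exposed groups in red left of the NC group (grey) of their batch, 1 point per library, horizontal lines at group means and a dotted line between the batches. The sum lies between 3448 and 3716 CPM in batch 1 and between 3019 and 3390 CPM in batch 2. The 3 sums of I0-E4 lie above all NC sums of batch 1, where 12.7% of all genes tested did not overlap NC.

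Hspa4 (chr11:53259814-53300457), the constitutive HSP110 protein APG-2, was the steadiest member, with a coefficient of variation of 1.92% over the 15 libraries of batch 1, against a median of 5.602% over the 2503 genes of at least 100 CPM. It had 568, 550 and 561 CPM in I0-E0, 552, 555 and 580 CPM in I0-E2, 570, 577 and 562 CPM in I0-E4, and 551, 568 and 557 CPM in I2-E2, against 554, 550 and 545 CPM in NC. Only I0-E4 lay above all NC libraries, where 12.7% of all genes tested did not overlap NC, and the log2 fold change there was 0.05 (95% interval -0.03 to 0.14). In I3-E3-SRS it had 502, 476 and 481 CPM, against 490 and 510 CPM in NC, with a log2 fold change of -0.04.

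Hspa4l (chr3:40744495-40796103), the third HSP110 protein, was below NC in all 4 exposed groups of batch 1 by the fitted estimate and above NC in batch 2, and passed the test in none. It had 145, 163 and 151 CPM in I0-E0, 158, 156 and 156 CPM in I0-E2, 151, 146 and 155 CPM in I0-E4, and 145, 144 and 155 CPM in I2-E2, against 164, 160 and 159 CPM in NC. I0-E2, I0-E4 and I2-E2 lay below all NC libraries, where 11.2%, 12.7% and 12.1% of all genes did not overlap NC, and I0-E0 overlapped through replicate 2. The log2 fold change was -0.12 in I2-E2 (95% interval -0.24 to -0.01, unadjusted p = 0.0427, adjusted p = 0.683 by edgeR). In I3-E3-SRS it had 148, 137 and 134 CPM, against 130 and 134 CPM in NC, again without overlap, as for 18.6% of all genes, and the log2 fold change was 0.09 (95% interval -0.08 to 0.24, adjusted p = 1.00 by edgeR). Over all 12 exposed libraries of batch 1 the log2 fold change was -0.08 (adjusted p = 0.808 by edgeR, where 0 of 8 members and 5.89% of all genes had an unadjusted p under 0.05) and the libraries overlapped NC, as for all 8 members (0.577% of all genes did not overlap).

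Hspa2 (chr12:76404176-76406938), known for its role in spermatogenesis, was the lowest member tested and the least precise. It had 6.87 to 9.94 CPM over the 12 exposed libraries of batch 1, against 7.11 to 8.66 CPM in NC, and 8.89, 10.98 and 10.96 CPM in I3-E3-SRS, against 14.1 and 10.4 CPM in NC of batch 2. Its groups overlapped in all 5 comparisons. The fitted log2 fold changes ran from 0.03 in I0-E4 to 0.14 in I2-E2 in batch 1 and stood at -0.23 in I3-E3-SRS, with intervals of limma-voom as wide as -0.60 to 0.26. The value in I3-E3-SRS was -0.45 without NC replicate 2 and -0.0059 without NC replicate 1.

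Hspa5 (chr2:34771970-34777547), the BiP chaperone of the endoplasmic reticulum, had the largest fitted difference among the abundant members, in I0-E4, and did not pass the test. It had 864, 815 and 825 CPM in I0-E0, 834, 877 and 866 CPM in I0-E2, 943, 901 and 863 CPM in I0-E4, and 861, 934 and 832 CPM in I2-E2, against 813, 807 and 848 CPM in NC. The 3 I0-E4 libraries lay above all NC libraries, where 12.7% of all genes tested did not overlap NC, and the other groups overlapped NC. The log2 fold change in I0-E4 was 0.13 (95% interval 0.03 to 0.24, unadjusted p = 0.0212, adjusted p = 0.612 by edgeR), and 7.91% of all genes had an unadjusted p under 0.05 there. At 20 mW the group means were 835 ± 25.6 CPM in I0-E0, 859 ± 22.3 CPM in I0-E2 and 902 ± 39.7 CPM in I0-E4, against 823 ± 22.0 CPM in NC (SD, n = 3 each), and the libraries of neighbouring groups in this order overlapped. In I3-E3-SRS it had 695, 690 and 744 CPM, against 696 and 695 CPM in NC of batch 2, with a log2 fold change of 0.03.

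Hspa9, the mitochondrial member, had 892, 889 and 873 CPM in I0-E0, 890, 903 and 860 CPM in I0-E2, 982, 913 and 872 CPM in I0-E4, and 907, 938 and 880 CPM in I2-E2, against 892, 871 and 895 CPM in NC. All groups overlapped NC, with I0-E4 replicate 1 the highest library. Its log2 fold changes were within 0.06 of 0 in the 4 comparisons of batch 1 and 0.01 in I3-E3-SRS, where it had 844, 864 and 919 CPM against 862 and 874 CPM in NC. Hspa13 (chr16:75745431-75767104), the microsomal member, had 53.7 to 70.3 CPM over the 12 exposed libraries of batch 1, against 61.7 to 67.6 CPM in NC, and 55.9, 63.0 and 62.1 CPM in I3-E3-SRS, against 47.9 and 61.8 CPM in NC. Its groups overlapped in all 5 comparisons, with log2 fold changes from -0.10 in I0-E4 to 0.03 in I2-E2 and of 0.13 in I3-E3-SRS. The value of Hspa13 in I3-E3-SRS was 0.34 without NC replicate 2 and -0.03 without NC replicate 1, and in I0-E4 it was -0.19 without I0-E4 replicate 3 and -0.02 without I0-E4 replicate 2.

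**Figure D3:**
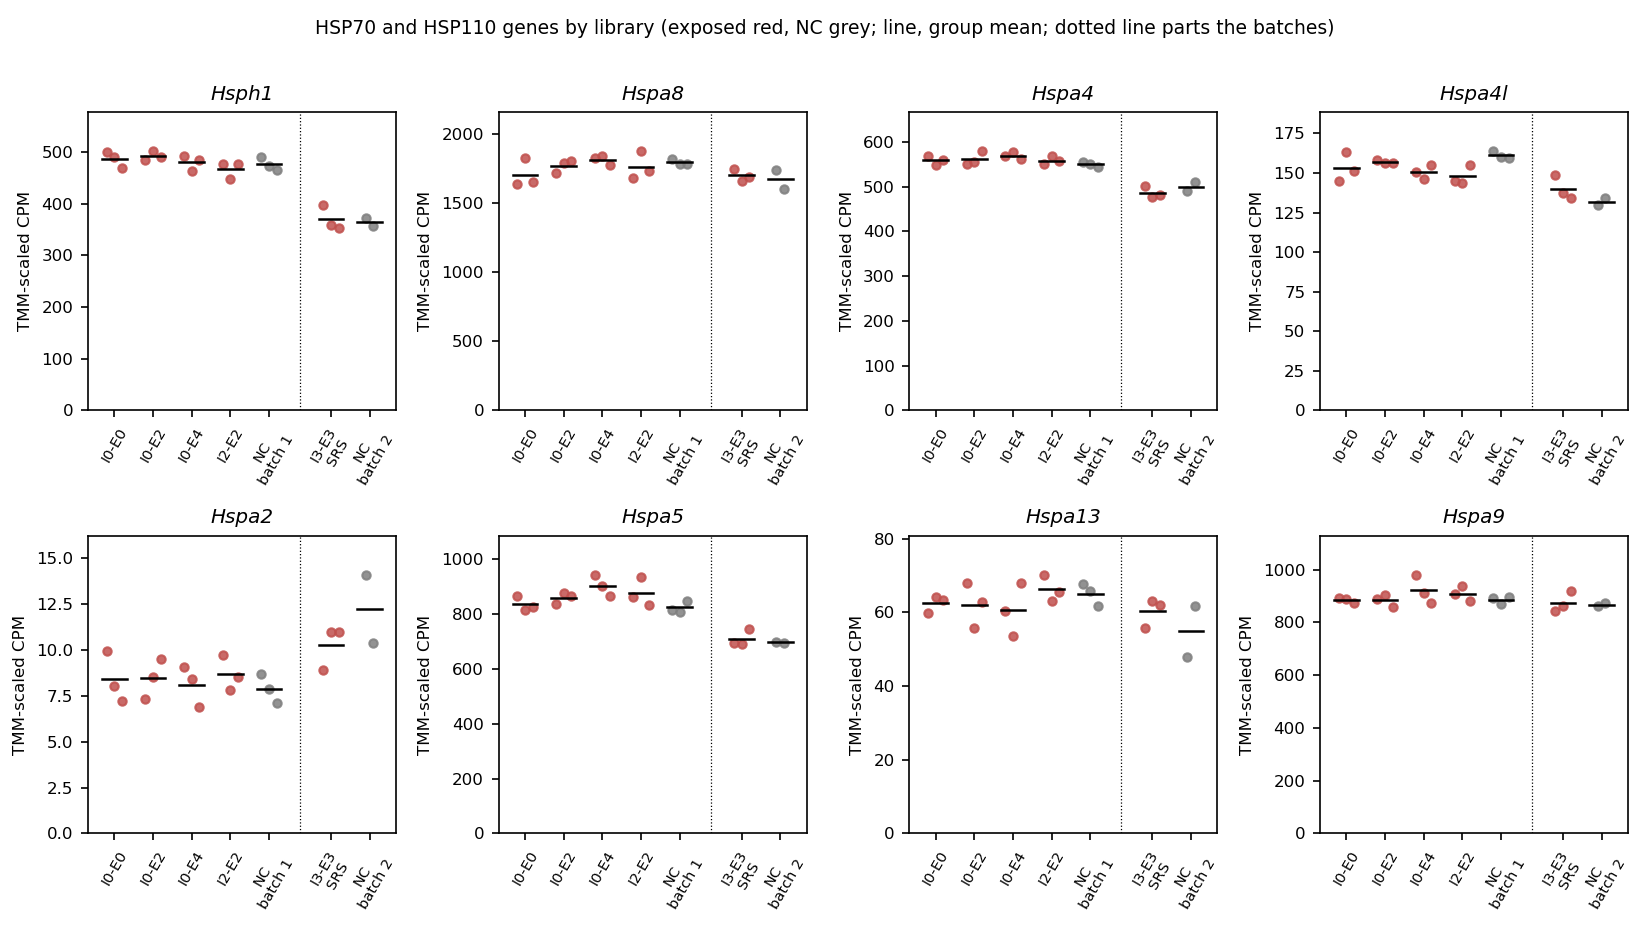
TMM-scaled CPM (y axes, from 0) of the 8 tested genes by group, with exposed groups in red left of the NC group (grey) of their batch, 1 point per library, horizontal lines at group means and a dotted line between the batches, which were scaled apart. Exposed and NC means sit close together for Hsph1 in batch 1, at 468 to 492 CPM against 477 CPM. In batch 2 Hspa2 averages 10.3 CPM in I3-E3-SRS against 12.2 CPM in NC, and Hspa13 60.3 CPM against 54.9 CPM. Hsph1, Hspa4 and Hspa5 sit lower in batch 2.

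**Figure D4:**
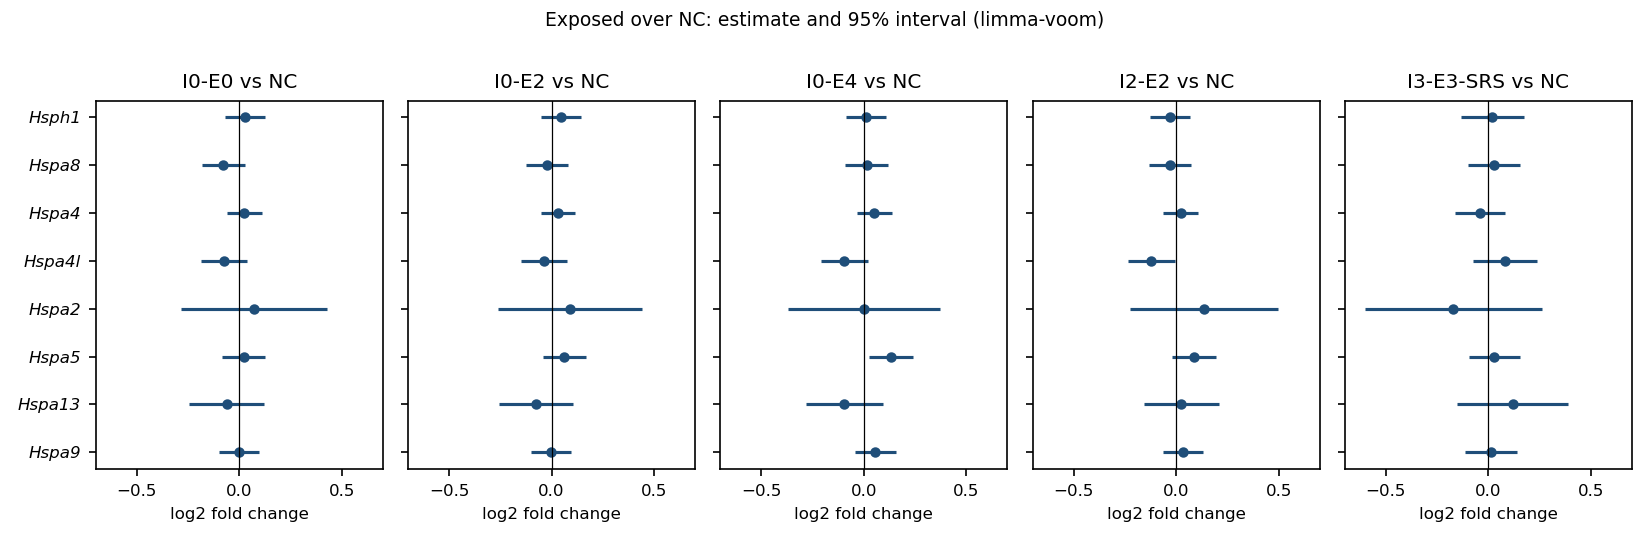
Log2 fold change of exposed over NC libraries (x axes) for the 8 tested genes in the 5 comparisons, as points with 95% intervals from limma-voom. The intervals of Hspa5 in I0-E4 (0.03 to 0.24) and of Hspa4l in I2-E2 (-0.24 to -0.01) leave out 0, both with adjusted p above 0.6, and Hspa2 has the widest intervals.

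Across the 8 tested members the median log2 fold change was 0.01 in I0-E0, 0.01 in I0-E2, 0.02 in I0-E4, 0.02 in I2-E2 and 0.02 in I3-E3-SRS, against medians between -0.00403 and 0.00396 over all genes tested in the same comparisons. The members above 0 numbered 4, 4, 6, 5 and 6 of 8 in that order. Intensity was compared at matched fluency, as I2-E2 against I0-E2, where dwelling time also differed (2 against 10 µs). It was also compared at a matched dwelling time, as I2-E2 against I0-E0, where fluency also differed (about 48 against about 10 J/cm2). Neither comparison separates intensity from the other setting. No member passed in either (0% of all genes passed, and 5.25% and 6.12% had an unadjusted p under 0.05), and no member was without overlap between I2-E2 and I0-E0, against 10.2% of all genes. Against I0-E2, I2-E2 was lower without overlap for Hsph1 (477, 449 and 477 CPM against 485, 502 and 490 CPM) and for Hspa4l, where 10.4% of all genes did not overlap, with log2 fold changes of -0.07 (95% interval -0.17 to 0.02) and -0.08 (95% interval -0.20 to 0.03). Between all pairs of exposed groups of batch 1, 48 member tests gave a smallest unadjusted p of 0.0469, for Hspa5 in I0-E4 over I0-E0 (log2 fold change 0.11, adjusted p = 0.966 by edgeR).

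The inducible members were then set against the constitutive ones within each library, as the summed TPM of Hspa1a, Hspa1b and Hsph1 in percent of the summed TPM of Hspa8 and Hspa4. Since Hspa1a and Hspa1b were near 0, the numerator was Hsph1. The denominator includes short transcripts without the full coding sequence, averaging 508 TPM for Hspa8 (727 bases) and 118 TPM for Hspa4 (630 bases) in batch 1. They held 10.2% and 6.08% of the reads of their genes. A retained-intron transcript of 751 bases added 37.1 TPM to Hsph1. The ratio therefore describes summed TPM and not coding transcripts alone, for which it was not tested. The ratio was 12.4% ± 0.841 in I0-E0, 12.1% ± 0.540 in I0-E2, 11.9% ± 0.817 in I0-E4 and 12.2% ± 0.365 in I2-E2, against 12.5% ± 0.942 in NC (SD, n = 3 each). In batch 2 it was 12.8%, 12.5% and 11.6% in I3-E3-SRS, against 16.2% and 12.3% in NC, where the 16.2% is the library rich in short transcripts. Exposed and NC libraries overlapped in batch 1, and in batch 2 the I3-E3-SRS libraries lay on both sides of the other NC library. By CPM, which does not use transcript length, the log2 ratio averaged -2.22 ± 0.07 in I0-E0, -2.25 ± 0.035 in I0-E2, -2.31 ± 0.0628 in I0-E4 and -2.31 ± 0.117 in I2-E2, against -2.30 ± 0.0264 in NC of batch 1 (SD, n = 3 each), so that I0-E0 and I0-E2 averaged below NC by TPM and above it by CPM. In batch 2 it averaged -2.57 ± 0.0578 in I3-E3-SRS (n = 3), against -2.58 ± 0.0118 in NC of batch 2 (n = 2). With Gm15459 added to Hspa8 the ratio was 6.86% to 7.17% as a mean of the exposed groups of batch 1, against 7.24% ± 0.537 in NC.

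**Figure D5:**
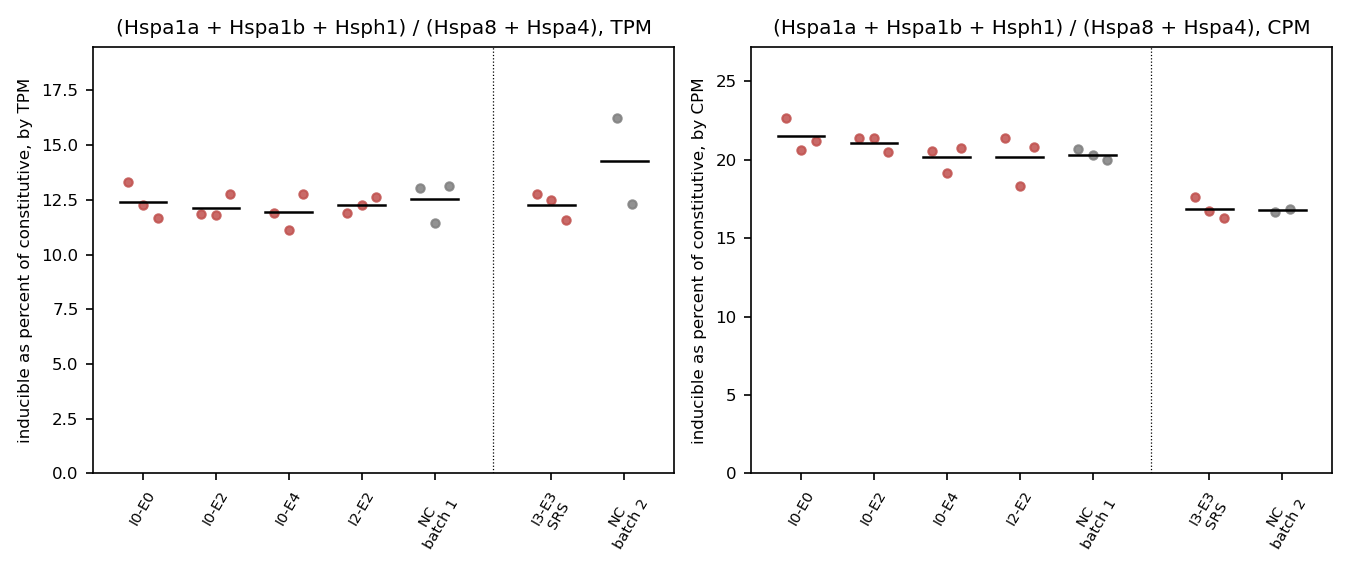
Inducible members (Hspa1a, Hspa1b and Hsph1 summed) in percent of the constitutive members (Hspa8 and Hspa4 summed) by group, from TPM (left) and from CPM (right), with exposed groups in red left of the NC group (grey) of their batch, 1 point per library and lines at group means. By TPM the groups average 11.9% to 12.5% in batch 1, and the single high point of 16.2% in NC batch 2 comes down to the level of its neighbours by CPM.

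The Hsph1 transcripts differ by a coding exon of 132 bases (44 codons, chr5:149623465-149623596), which some of them lack, as the shorter HSP105 beta form does. Of the TPM on transcripts with or without that exon, the form without it held 35.8% to 38.8% in I0-E0, 31.5% to 40.8% in I0-E2, 27.7% to 41.8% in I0-E4 and 31.03% to 37.4% in I2-E2, against 30.4% to 40.5% in NC. These ranges overlapped. In batch 2 it held 25.1%, 30.3% and 26.3% in I3-E3-SRS, against 43.9% and 29.5% in NC, the 43.9% again in the library rich in short transcripts. Salmon divides reads between such forms by estimation, and with a spread of up to 7.70 percentage points (SD, I0-E4) among 3 libraries no difference could be read from them.

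The levels of several members also differed between the batches. With all libraries scaled together, Hsph1 was 355 to 397 CPM in batch 2, against 446 to 502 CPM in batch 1, Hspa4 was 475 to 508 CPM against 545 to 580 CPM, and Hspa5 was 687 to 749 CPM against 807 to 946 CPM. These 3 of the 8 members were lower in batch 2 without overlap over all libraries, as were 5.71% of all genes. Between NC libraries alone, Hsph1 averaged 364 CPM in batch 2, against 477 CPM in batch 1, a log2 difference of -0.39, and the difference is -0.42 without NC batch 2 replicate 1. Of the 8 members 7 did not overlap between the NC groups, against 48.2% of all genes. Of these, 6 were lower and Hspa2 was higher in batch 2, by 0.63 on the log2 scale (0.39 without NC batch 2 replicate 1), while Hspa9, with -0.03, overlapped. Batch and objective differ together with the exposure setting, so I3-E3-SRS cannot be compared with the settings of batch 1.

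The genes that work with the family were counted from 5 lists, and 0 genes of any list passed the test in either direction in the 5 comparisons with NC. Of 22 tested J-domain co-chaperones, those with a positive fitted value numbered 9, 11, 15, 12 and 13 in the order I0-E0, I0-E2, I0-E4, I2-E2 and I3-E3-SRS. The smallest unadjusted p values belonged to Dnajc5, a co-chaperone of synaptic vesicles (-0.23 in I0-E4, adjusted p = 0.612 by edgeR), and Dnajb5 (-0.29 in I2-E2, adjusted p = 0.702 by edgeR). Of 13 exchange factors and adaptors, 10, 9, 8, 7 and 7 were above 0. Hspbp1, an exchange factor of HSP70, had a log2 fold change of 0.22 in I0-E4 (adjusted p = 0.612 by edgeR) and of 0.24 in I3-E3-SRS (adjusted p = 1.00 by edgeR), and Stub1, the ubiquitin ligase that binds HSP70, one of 0.25 in I0-E4 (adjusted p = 0.620 by edgeR) and of -0.11 in I3-E3-SRS (adjusted p = 1.00 by edgeR).

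The list of other HSF1 targets holds chaperones outside the family and shares Dnajb1 and Bag3 with the lists above. Of 15 listed targets 14 were tested, and 10, 12, 12, 11 and 9 of them were above 0 in the 5 comparisons, with medians of 0.03, 0.05, 0.07, 0.05 and 0.02 on the log2 scale. Over all 12 exposed libraries of batch 1 the fitted value was above 0 for 13 of 14, with a median of 0.04 against 0.0009344 over all genes, and none passed the test. In the same contrast 12 of 22 J-domain co-chaperones and 9 of 13 exchange factors and adaptors were above 0. So were 10 of 17 endoplasmic reticulum stress genes (median 0.04) and 3 of 5 other HSP70 relatives (median 0.06). All these values rest on the same 3 NC libraries and are not independent. Bag3, which links HSP70 to small heat shock proteins, had 221 ± 7.90 CPM in I3-E3-SRS (n = 3), against 243 ± 0.875 CPM in NC (n = 2), with a log2 fold change of -0.14 and an adjusted p of 1.00 by edgeR. Fkbp4, an HSP90 partner, had a log2 fold change of 0.13 in I0-E4 (adjusted p = 0.623 by edgeR).

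Among 17 genes of the endoplasmic reticulum stress response, which often move with Hspa5, 9, 12, 11, 12 and 8 were above 0, with medians between -0.00642 and 0.06. Sdf2l1, a cofactor of BiP, averaged 56.6 ± 11.4 CPM in I0-E4, against 44.2 ± 6.16 CPM in NC (SD, n = 3 each), a log2 fold change of 0.35 (adjusted p = 0.620 by edgeR). Sel1l, a subunit of the degradation machinery, had a log2 fold change of -0.14 in I3-E3-SRS (adjusted p = 1.00 by edgeR). Of the 5 further HSP70 relatives, all tested, Hspa14, a ribosome-associated member, had a log2 fold change of 0.10 in I0-E4 (adjusted p = 0.667 by edgeR) and Hspa12b one of 0.45 in I2-E2 at 4.62 ± 1.40 CPM, against 3.35 ± 0.579 CPM in NC (adjusted p = 0.765 by edgeR).

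Lastly, the genes whose level followed that of Hsph1 across the 15 libraries of batch 1 were listed, as a description over libraries that share depth and scaling. The closest 5 by Pearson's correlation of log2 CPM were Rapgef1 (r = 0.92, Spearman's rho = 0.87), Pskh1 (r = 0.87, rho = 0.80), Mut (r = 0.86, rho = 0.78), Wdr6 (r = 0.85, rho = 0.89) and Pygb (r = 0.84, rho = 0.78). Without the 2 libraries farthest from the median of Hsph1 these fell to between 0.69 and 0.85. Among the members the correlation with Hsph1 lay between -0.23 (Hspa8) and 0.44 (Hspa2). Without the same 2 libraries it was 0.20 for Hspa8, 0.53 for Hspa2 and -0.44 for Hspa13, the lowest. Hspa2 thus stayed the highest, and Hspa13 stayed below 0 (-0.03 with all 15 libraries). The sign changed for Hspa8, Hspa4, Hspa4l, Hspa5 and Hspa9, and for these it rests on those libraries. No other member was among the 5 closest genes.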

How the data were processed

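Bulk polyA RNA of 20 N2A libraries had been quantified by the authors with Salmon, with no version, options or transcript release given in the sources used here. The deposited values are, per transcript, an estimated count of reads, not normalized, and TPM, which the authors' Salmon run made from those counts by effective length and a fixed sum per library. Of the transcript identifiers 98.6% matched GENCODE vM21 (GRCm38), and unmatched ones held 0.664% to 0.748% of reads. Estimated counts were summed per gene, rounded, filtered (filterByExpr), scaled by TMM and tested with edgeR 4.0.16, batch 1 (15 libraries) and batch 2 (5 libraries) apart, with group as the only factor and Benjamini-Hochberg adjustment over all genes at a threshold of 0.05. Intervals came from limma 3.58.1 (voom). Scripts were tested on simulated data. R 4.3.3, DESeq2 1.42.0, Python 3.11.15, pandas 2.3.3, numpy 2.4.6, scipy 1.17.1 and matplotlib 3.10.9 were used. Promoters are from RefSeq's GRCm38 table. The floor of 3 reads covers counting error only.

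The members and the lists of partners were chosen with earlier results of these data known. All 10 members are named. A listed marker gene is not reported here. From each list the genes past the threshold are named, or else the 2 with the smallest unadjusted p over the 5 comparisons, and for likeness the 5 genes closest to Hsph1. Alternatives were library totals, DESeq2 size factors, no filter, DESeq2, limma-voom, a replicate block, leaving out each replicate, fitting both groups alone, and, chosen after seeing the data, Gm15459 added to Hspa8 and the ratio with each replicate left out.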

Additional observations from a re-analysis of the deposited data

How the results depend on the processing

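The count of members called was recomputed 106 times over the 8 comparisons and was 0 each time. Of 792 recomputed member fold changes 44 had another sign than the reported one, all of reported size at most 0.13 on the log2 scale, and the smallest adjusted p was 0.189 (Hspa5 in I0-E4 without I0-E4 replicate 3, by edgeR). Hspa5 in I0-E4 ran from 0.10 to 0.16 (adjusted p 0.189 to 0.988) and Hspa4l in I2-E2 from -0.17 to -0.10 (adjusted p 0.291 to 0.999). Over all genes, the 0 calls became 46 to 194 with no filter on low counts, 0 to 15 with DESeq2, 1 with library totals for I2-E2 over I0-E0, 2 with the 2 groups alone for I2-E2 over I0-E2, 0 to 2 without NC replicate 1, 1 each for I0-E0, I0-E2, I0-E4 and all exposed libraries of batch 1 without NC replicate 2, 1 without I0-E0 replicate 3 for I2-E2 over I0-E0, and 671 in I3-E3-SRS without NC replicate 2, which leaves the library rich in short transcripts as the only control. The cause was not tested. The log2 ratio of inducible over constitutive members, exposed minus NC, was -0.01 in I0-E0 and 0.08 by CPM, -0.04 in I0-E2 and 0.0538 by CPM, and -0.20 in I3-E3-SRS and 0.0081 by CPM. In I3-E3-SRS it ran from -0.40 without NC replicate 2 to -0.0042 without NC replicate 1. Replicate numbers gave no sign of pairing in batch 1. Same-numbered libraries there had correlations of deviations of -0.39 to 0.50, with 7 of 30 over 0.1. Differently numbered libraries had -0.40 to 0.40, with 17 of 60 over 0.1. Same-numbered libraries of batch 2 had -0.02 and 0.04. These cannot decide on pairing, because the deviations of 2 NC libraries from their mean mirror each other. With a replicate block 0 members were called, and 6 genes in I3-E3-SRS. Of 40 member ratios by TPM, 9 moved by at least 1 SD by CPM, 4 of them in I3-E3-SRS. Depth limits Hspa1a, Hspa1b and Hspa2.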
